A study of Mus musculus with 8 samples.

Results

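The genes described here are 10 members of the tumor necrosis factor (TNF) superfamily, 6 ligands and 4 receptors, from a table of 23356 genes. They were chosen by name, with earlier results of these data known. The ligands are Tnf, Tnfsf4, Tnfsf9, Tnfsf14, Tnfsf15 and Tnfsf13b, and the receptors are Tnfrsf1a, Tnfrsf1b, Tnfrsf9 and Tnfrsf11a. All 10 reached at least 1 FPKM in at least 1 group, as did 11397 genes in all. The RNA came from bone marrow-derived dendritic cells (BMDCs), grown from mouse marrow for 6 days with the cytokines GM-CSF and IL-4. The mice, C57BL/6 in the labels and C57BL/6N in the methods, were either wild type (WT) or lacking Arhgef2 (GEF-H1-/-), the gene for the microtubule-bound exchange factor GEF-H1, and the methods describe adult mice of both sexes, matched by sex. BMDCs of each genotype were left untreated (control) or received ansamitocin-P3, a tubulin-binding relative of maytansine under which microtubules come apart, at 100 nM for 5 h. Each of the 4 groups had 2 libraries, 8 in all, and the table gives 1 pooled value per gene and group. The labels name no Cre or cell-specific deletion for the GEF-H1-/- mice, and nothing states that the libraries of a group came from separate mice.

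Ligands of the TNF superfamily are mostly trimeric membrane proteins, some of them also shed from the surface, and they act by clustering receptors whose cytoplasmic tails recruit TRAF adaptors or death domain proteins. In dendritic cells, TNF is an inflammatory cytokine and several membrane-bound ligands give costimulatory signals to T cells. Many of these genes are known targets of NF-κB.

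Values are FPKM, fragments scaled by the length of the transcript and the size of the library, each followed by the 95% interval that the Cuffdiff program computed. Since single libraries were not given, no SD or p-value could be computed. The folds below are ratios of FPKM, with the intervals carried to the ratio, and log2 ratios are of FPKM + 1. Genes beyond 1 in either direction on that log2 scale were called. The interval bounds of 8 of the 10 genes were whole multiples, within 0.02, of a step that was the same in the 4 groups, and in these steps the values ran from 36 (Tnfsf13b, treated GEF-H1-/- BMDCs) to 7403 (Tnfrsf1b, treated WT BMDCs). If 1 step is 1 fragment, which the sources used here do not state, the intervals were 1.11 to 8.66 times as wide as counting error alone gives. The methods give a target for the reads per library, and the depth reached is not part of the table.

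Arhgef2, the deleted gene, was at 42.3 FPKM (34.5 to 50.0) in control and 45.9 FPKM (36.9 to 54.9) in treated WT BMDCs. In GEF-H1-/- BMDCs it was at 4.59 FPKM (3.54 to 5.63) without the drug and 4.16 FPKM (3.22 to 5.11) with it. The genotypes thus ran as labelled, although the column names state a genotype only for the GEF-H1-/- groups. Arhgef2 cannot check which group of each genotype was treated, and this was taken from the column names. All 10 dendritic cell markers examined were at 1 FPKM or more, with a summed FPKM of 5024 to 7723 by group. Transcripts listed as markers of other cells were also present. In untreated WT, treated WT, untreated GEF-H1-/- and treated GEF-H1-/- BMDCs, the 7 neutrophil markers in the table summed to 32422, 38285, 21832 and 22240 FPKM. Most of this was S100a8, at 19401, 23110, 10856 and 11199 FPKM, and S100a9, at 10678, 12394, 10004 and 10130 FPKM. The sums thus say little of the other neutrophil markers, of which Mpo and Elane were higher in GEF-H1-/- BMDCs and Camp, Ltf and Ngp lower. The macrophage markers, 9 of 10 at 1 FPKM, summed to 270, 204, 407 and 373 FPKM in the same order, and the basophil and mast cell markers, 6 of 7 at 1 FPKM and 1 listed at 0 in a group, to 192, 198, 350 and 335 FPKM. The erythroid and platelet markers, 4 of 6 at 1 FPKM, summed to 56.5, 97.6, 139 and 153 FPKM. With the drug in WT BMDCs, the platelet marker Ppbp had a log2 ratio of 1.30 and the macrophage marker Mertk of -1.86. T and NK cell markers (7 of 9 at 1 FPKM, sums of 32.2 to 45.9 FPKM) and B cell markers (4 of 5, sums of 6.56 to 16.6 FPKM) were low. These sums differ between the genotypes and some of them with the drug in WT BMDCs, and their part in the values below was not tested. In such bulk RNA, fewer cells of a type and less RNA per cell cannot be told apart.

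The RefSeq table of promoters (GRCm38.p6) held 8 of the 10 genes, with 10 start sites, and no entry for Tnfsf4 or Tnfsf9. The 250 bases before the start site are given 5′ to 3′ on the gene's strand, for 4 genes that stand for the patterns described further on. Tnfrsf9 is a receptor with folds of 1.93 in WT and 1.27 in GEF-H1-/- BMDCs, and Tnfsf15 and Tnf are ligands with like folds in both genotypes. Tnfsf13b was the only one of the ligands that was lower with the drug in WT BMDCs. The Tnfrsf9 windows lie at chr4:150919905-150920154 and chr4:150927749-150927998 on the plus strand, Tnfsf15 at chr4:63745060-63745309 and Tnf at chr17:35202008-35202257 on the minus strand, and the second Tnfsf13b start at chr8:10006383-10006632 on the plus strand. Capitals mark matches to an AP-1 site (TGANTCA) or to the κB consensus.
Tnfrsf9 start 1: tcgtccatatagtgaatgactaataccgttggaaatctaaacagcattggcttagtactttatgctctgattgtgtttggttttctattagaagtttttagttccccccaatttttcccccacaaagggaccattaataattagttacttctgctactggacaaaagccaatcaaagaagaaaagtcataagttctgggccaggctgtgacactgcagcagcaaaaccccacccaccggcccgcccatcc
Tnfrsf9 start 2: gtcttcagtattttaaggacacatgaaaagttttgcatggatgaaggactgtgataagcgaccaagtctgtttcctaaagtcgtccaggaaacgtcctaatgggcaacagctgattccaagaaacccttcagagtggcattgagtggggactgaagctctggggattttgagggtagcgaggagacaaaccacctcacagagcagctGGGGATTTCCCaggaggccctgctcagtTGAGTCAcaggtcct
Tnfsf15: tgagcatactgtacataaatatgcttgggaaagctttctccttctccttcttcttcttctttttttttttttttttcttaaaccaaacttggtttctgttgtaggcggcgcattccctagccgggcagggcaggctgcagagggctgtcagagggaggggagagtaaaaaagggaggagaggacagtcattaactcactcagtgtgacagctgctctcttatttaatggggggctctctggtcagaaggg
Tnf: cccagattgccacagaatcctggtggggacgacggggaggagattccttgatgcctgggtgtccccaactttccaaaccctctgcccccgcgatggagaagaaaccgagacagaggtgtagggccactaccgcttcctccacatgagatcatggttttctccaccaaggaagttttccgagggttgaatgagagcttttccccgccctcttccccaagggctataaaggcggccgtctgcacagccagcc
Tnfsf13b start 2: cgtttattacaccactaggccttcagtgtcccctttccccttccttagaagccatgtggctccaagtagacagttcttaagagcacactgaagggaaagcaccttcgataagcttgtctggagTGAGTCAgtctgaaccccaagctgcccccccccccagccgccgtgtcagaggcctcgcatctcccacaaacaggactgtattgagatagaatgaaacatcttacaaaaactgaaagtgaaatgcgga

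Both strands were searched for the AP-1 site, the CRE (TGACGTCA), the κB consensus and the CArG box, each by its letters alone. The second start of Tnfrsf9 had an AP-1 site, TGAGTCA, at -15 to -9 (-1 is the base before the start) and overlapping κB matches, GGGGATTTCC at -43 to -34 and GGGATTTCCC at -42 to -33. The first start of Tnfrsf9 held no match. TGAGTCA was also found at -127 to -121 of the second Tnfsf13b start and at -160 to -154 of Tnfsf14. The first start of Tnfsf13b, not printed above, held no match. Of the 10 start sites, 3 held the AP-1 site and 1 the κB consensus, and no CRE or CArG box was found. Of 32851 promoters, 6.75% held the AP-1 site, 7.25% the κB consensus, 1.55% the CRE and 1.47% the CArG box. A match describes letters in the window and says nothing of binding.

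To ask how these genes respond to microtubule destabilization and whether the response differs without GEF-H1, each genotype's treated BMDCs were compared with its own controls. In WT BMDCs, the ligands Tnfsf4 and Tnfsf15 rose, and they were the only 2 of the 10 genes past the limit, where 4.94% of all genes passed it in either direction and 3.66% upward. Intervals did not overlap for 5 of the 10, against 16.8% of all genes. The value with the drug was the higher for 4 of them (Tnfsf4, Tnfsf9, Tnfsf15 and Tnfrsf9), against 9.19% of all genes, and the lower for 1 (Tnfsf13b), against 7.58%. In GEF-H1-/- BMDCs, 1 of the 10 was called, Tnfsf4, which rose, where 1.08% of all genes were called and 0.807% upward. Intervals did not overlap for 2 of the 10, Tnfsf4 and Tnfsf15, where this held for 3.70% of all genes, and both were higher with the drug, against 2.75%. The median log2 ratio of the 10 genes was 0.48 in WT and 0.04 in GEF-H1-/- BMDCs, where that of all genes was 0.00 and -0.01.

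**Figure D1:**
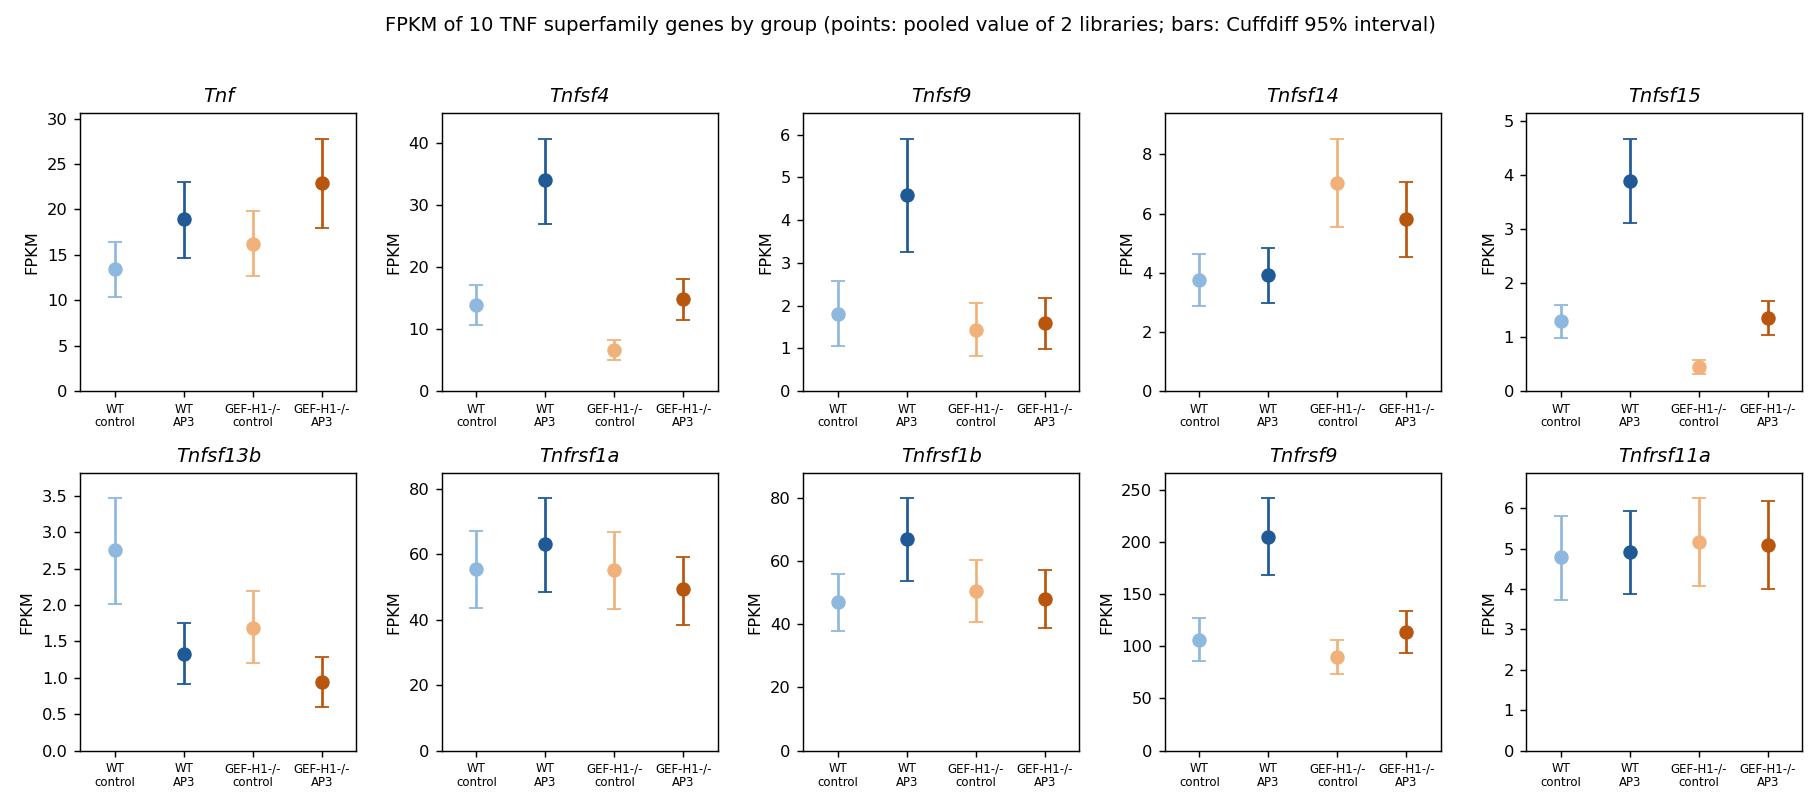
FPKM (vertical axes, linear, from 0) of the 6 ligands and 4 receptors in control and ansamitocin-P3-treated (AP3) WT and GEF-H1-/- BMDCs. Points are the pooled value of 2 libraries and bars the 95% interval of Cuffdiff. Tnfsf4 and Tnfsf15 are higher with the drug in both genotypes, Tnfsf9 and Tnfrsf9 stand apart in treated WT BMDCs, and Tnfrsf11a is level.

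Tnf (chr17:35199391-35201996), which encodes the TNF cytokine, was at 13.4 FPKM (10.3 to 16.4) in untreated and 18.9 (14.6 to 23.0) in treated WT BMDCs, and 16.2 (12.7 to 19.8) in untreated and 22.9 (18 to 27.8) in treated GEF-H1-/- BMDCs. The ratio of treated to control was 1.41 (1.03 to 1.93) in WT and 1.41 (1.04 to 1.91) in GEF-H1-/- BMDCs. Treated cells thus had the higher value in both genotypes, but the intervals of the FPKM overlapped in each of the 4 comparisons of group with group and Tnf was not called. The log2 ratio differed between the genotypes by 0.01, with an interval from -0.59 to 0.60.

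Tnfsf4 (chr1:161395438-161418206) encodes OX40 ligand, which costimulates T cells through the receptor OX40. It was at 13.9 FPKM (10.7 to 17.1) in untreated and 34.1 (27 to 40.8) in treated WT BMDCs, and 6.59 (4.96 to 8.20) in untreated and 14.8 (11.5 to 18.1) in treated GEF-H1-/- BMDCs. It rose in both genotypes, 2.45-fold (1.80 to 3.33) in WT and 2.25-fold (1.61 to 3.14) in GEF-H1-/- BMDCs. The level in GEF-H1-/- relative to WT BMDCs was 0.473 (0.338 to 0.663) without and 0.434 (0.321 to 0.588) with the drug, and only the latter passed the limit, with a log2 ratio of -1.15. The intervals did not overlap in any of the 4 comparisons, and the drug's log2 ratio differed between the genotypes by -0.17 (-0.78 to 0.43).

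Tnfsf15 (chr4:63724603-63745113) encodes TL1A, a ligand that costimulates lymphocytes through death receptor 3. It was at 1.29 FPKM (0.981 to 1.60) in untreated and 3.90 (3.12 to 4.68) in treated WT BMDCs, and 0.448 (0.312 to 0.578) in untreated and 1.35 (1.03 to 1.66) in treated GEF-H1-/- BMDCs. The fold was 3.01 (2.20 to 4.12) in WT and 3.02 (2.07 to 4.40) in GEF-H1-/- BMDCs, and the ratio of these folds was 1.0 (0.614 to 1.64). The log2 ratio of FPKM + 1 was 1.09 in WT, past the limit, and 0.70 in GEF-H1-/- BMDCs, and the difference of -0.39 (-0.78 to -0.01) came with the 1 FPKM added to low values. Against WT BMDCs the level in GEF-H1-/- BMDCs was 0.346 (0.236 to 0.507) without and 0.347 (0.255 to 0.472) with the drug. As for Tnfsf4, the intervals did not overlap in any of the 4 comparisons.

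Tnfsf9 encodes 4-1BB ligand, a costimulator of CD8 T cells, and its locus in the table (chr17:57092023-57107757) overlaps that of Gm11110, so fragments of the shared stretch could be assigned to either gene. Tnfsf9 was at 1.81 FPKM (1.06 to 2.57) in untreated and 4.59 (3.26 to 5.91) in treated WT BMDCs, and 1.43 (0.826 to 2.06) in untreated and 1.60 (0.988 to 2.18) in treated GEF-H1-/- BMDCs. The treated WT group stood above the other 3 groups, whose intervals overlapped one another. The ratio of treated to control was 2.53 (1.53 to 4.19) in WT and 1.12 (0.634 to 1.99) in GEF-H1-/- BMDCs. On the log2 scale of FPKM + 1, the WT value of 0.99 lay just under the limit and the GEF-H1-/- value was 0.10. The interval of their difference, -0.89 (-1.60 to -0.18), did not include 0.

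Tnfsf14 (chr17:57189492-57194186) encodes LIGHT, a ligand of HVEM and of the lymphotoxin β receptor. It was at 3.76 FPKM (2.86 to 4.65) in untreated and 3.92 (2.98 to 4.85) in treated WT BMDCs, and 7.04 (5.54 to 8.54) in untreated and 5.81 (4.54 to 7.07) in treated GEF-H1-/- BMDCs. Control GEF-H1-/- BMDCs had 1.87 times the WT level (1.36 to 2.57), with intervals apart but a log2 ratio of 0.75, and the treated groups overlapped. The log2 ratio to control was 0.05 (-0.34 to 0.43) in WT and -0.24 (-0.62 to 0.14) in GEF-H1-/- BMDCs.

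Tnfsf13b (chr8:10006633-10035999) encodes BAFF, a survival factor of B cells, and was the only one of the 6 ligands that was lower with the drug in WT BMDCs. It was at 2.75 FPKM (2.01 to 3.47) in untreated and 1.33 (0.913 to 1.75) in treated WT BMDCs, and 1.69 (1.20 to 2.19) in untreated and 0.939 (0.600 to 1.28) in treated GEF-H1-/- BMDCs. The ratio of treated to control was 0.484 (0.321 to 0.731) in WT, with intervals apart, and 0.557 (0.349 to 0.887) in GEF-H1-/- BMDCs, with intervals that overlapped. The log2 ratios of FPKM + 1 were -0.69 and -0.47, neither past the limit.

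Among the receptors, Tnfrsf1a (chr6:125349723-125362483) encodes TNF receptor 1, which carries a death domain. It was at 55.4 FPKM (43.5 to 67.1) in untreated and 63.1 (48.5 to 77.2) in treated WT BMDCs, and 55.3 (43.3 to 66.8) in untreated and 49.4 (38.4 to 59.2) in treated GEF-H1-/- BMDCs. All 4 intervals overlapped, and the log2 ratio to control was 0.19 (-0.26 to 0.63) in WT and -0.16 (-0.58 to 0.26) in GEF-H1-/- BMDCs. Tnfrsf1b (chr4:145212368-145246870) encodes TNF receptor 2, which lacks a death domain and signals through TRAF2. It was at 46.9 FPKM (37.9 to 55.9) in untreated and 66.8 (53.6 to 79.9) in treated WT BMDCs, and 50.5 (40.7 to 60.3) in untreated and 48.1 (38.7 to 57.3) in treated GEF-H1-/- BMDCs. The treated WT value was the highest of the 4, at 1.42 times its control (1.08 to 1.88), while the ratio in GEF-H1-/- BMDCs was 0.952, but the FPKM intervals of all 4 groups overlapped. The log2 ratios, 0.50 and -0.07, differed by -0.57 (-1.12 to -0.02).

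Tnfrsf9 (chr4:150920155-150946102) encodes 4-1BB (CD137), the receptor of the Tnfsf9 product and an activation marker of T cells that dendritic cells also express. It was at 106 FPKM (85.4 to 127) in untreated and 205 (168 to 242) in treated WT BMDCs, and 89.8 (73.3 to 106) in untreated and 114 (93.1 to 134) in treated GEF-H1-/- BMDCs. As for its ligand, the treated WT group stood apart and the other 3 overlapped. The ratio of treated to control was 1.93 (1.48 to 2.52) in WT and 1.27 (0.978 to 1.64) in GEF-H1-/- BMDCs, and the ratio of these folds was 0.655 (0.452 to 0.949). The WT log2 ratio of 0.95 lay under the limit.

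Tnfrsf11a (chr1:105780723-105847981) encodes RANK, which acts in osteoclast formation and in dendritic cell survival. It was at 4.78 FPKM (3.74 to 5.81) in untreated and 4.91 (3.87 to 5.94) in treated WT BMDCs, and 5.17 (4.08 to 6.25) in untreated and 5.08 (4.0 to 6.17) in treated GEF-H1-/- BMDCs. The 4 intervals overlapped almost fully. The log2 ratio to control was 0.03 (-0.33 to 0.39) in WT and -0.02 (-0.38 to 0.34) in GEF-H1-/- BMDCs, and these intervals leave out a log2 ratio of 1.

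**Figure D2:**
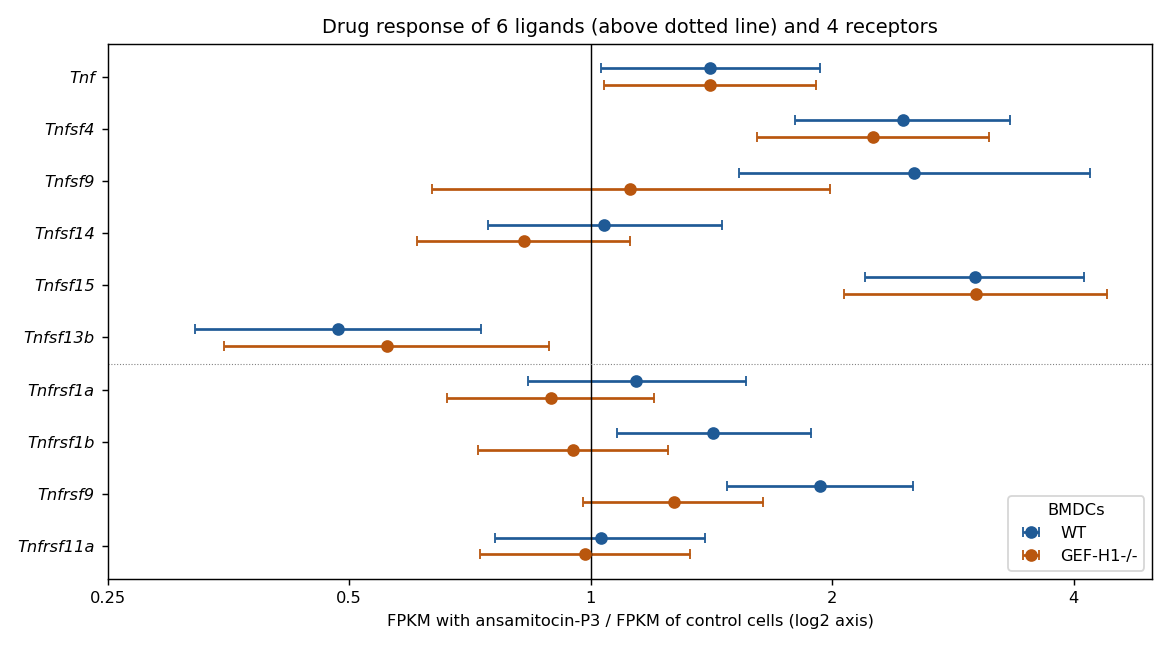
Ratio of FPKM in ansamitocin-P3-treated to control BMDCs (horizontal axis, log2 scale) for the 10 genes, in WT (blue) and GEF-H1-/- (orange) BMDCs, with bars for the carried 95% intervals. The pairs of points for Tnf, Tnfsf4, Tnfsf15 and Tnfsf13b lie close together, at 1.41 and 1.41, 2.45 and 2.25, 3.01 and 3.02, and 0.484 and 0.557, whereas those for Tnfsf9, Tnfrsf1b and Tnfrsf9 are spread.

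As for how far the drug's log2 ratio differed between the genotypes, 0 of the 10 genes passed the limit, against 1.90% of all genes. The interval of the difference did not include 0 for 4 of the 10, against 8.29% of all genes, and all 4 had the smaller value in GEF-H1-/- BMDCs (Tnfsf9, Tnfsf15, Tnfrsf1b and Tnfrsf9), against 4.77%. Without the added 1 FPKM, the interval for Tnfsf15 did include 0 (its folds are given above), and those for Tnfsf9, Tnfrsf1b and Tnfrsf9 did not. These differences depend on the scaling of the groups. With every group scaled to a common summed FPKM, the differences were -0.70 (-1.42 to 0.02) for Tnfsf9, -0.34 (-0.89 to 0.21) for Tnfrsf1b, -0.37 (-0.90 to 0.16) for Tnfrsf9 and -0.19 (-0.57 to 0.19) for Tnfsf15, all below 0 with intervals that include it. As deposited, the difference was below 0 for 8 of the 10 genes, against 51.6% of all genes, and with a common summed FPKM for 6 of the 10, against 23.7%.

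Between the control groups, 0 of the 10 genes passed the limit, where 1.88% of all genes did, and the intervals of 3 did not overlap, against 4.74% of all genes. Tnfsf4 and Tnfsf15 were lower in GEF-H1-/- BMDCs, a direction seen without overlap in 1.88% of all genes, and Tnfsf14 was higher, as were 2.86%. In the same comparison 3 of the 10 macrophage markers were over 1 and none under -1 (C1qa 2.53, but Adgre1 0.04 and Csf1r 0.10), and of the 7 neutrophil markers 2 were over 1 (Mpo 1.23 and Elane 1.11) and 3 under -1 (Camp -3.57, Ltf -1.46 and Ngp -1.28). Their part in the levels of these ligands was not tested. Between the treated groups, 3 of the 10 fell below -1 in GEF-H1-/- relative to WT BMDCs, where 4.06% of all genes passed the limit and 2.06% passed it downward. They were Tnfsf4 at -1.15 (-1.57 to -0.73), Tnfsf9 at -1.10 (-1.58 to -0.63) and Tnfsf15 at -1.06 (-1.36 to -0.76), all of them ligands. Tnfrsf9 followed at -0.85 (-1.21 to -0.48), with intervals apart, so that 4 of the 10 had a lower value in treated GEF-H1-/- BMDCs without overlap, against 13.7% of all genes in either direction and 6.73% downward. The comparisons share groups, so that a high value in treated WT BMDCs enters each of those that use this group.

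FPKM correct for length, so levels can be set beside one another. Tnfrsf9 was the highest of the 10 genes in all 4 groups, and in control WT BMDCs its interval did not overlap that of the next gene. Tnfrsf1a at 55.4 FPKM and Tnfrsf1b at 46.9 FPKM followed and overlapped each other. Tnfsf4 at 13.9 and Tnf at 13.4 FPKM came next and were not distinguishable, and Tnfrsf11a, Tnfsf14, Tnfsf13b, Tnfsf9 and Tnfsf15 followed from 4.78 to 1.29 FPKM, each overlapping its neighbour in the order.

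The partners of the ligands were expressed at very different levels. Tnfrsf4, the OX40 receptor of the Tnfsf4 product, was at 5.00, 5.20, 3.09 and 3.64 FPKM in untreated WT, treated WT, untreated GEF-H1-/- and treated GEF-H1-/- BMDCs. Tnfrsf25, the receptor of the Tnfsf15 product, did not exceed 0.129 FPKM in any group. The LIGHT receptors Ltbr (29.0 to 33.2 FPKM) and Tnfrsf14 (7.98 to 12.0 FPKM) were present in all groups.

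The receptors of BAFF were also measured. Tnfrsf13c, the BAFF receptor, was at 3.03 FPKM in untreated and 0.801 in treated WT BMDCs, and 3.0 in untreated and 1.52 in treated GEF-H1-/- BMDCs. It fell in WT, with a log2 ratio of -1.16 (-1.53 to -0.79). In GEF-H1-/- BMDCs it was also lower with the drug, with intervals apart (2.23 to 3.77 and 1.07 to 1.95), but was not called. Tnfrsf13b, which encodes TACI, was at 12.8, 6.82, 9.70 and 9.16 FPKM in the same order and was not called as deposited, and Tnfrsf17 was at 0.0295 FPKM or listed at 0. Both Tnfrsf13c and Tnfrsf17 are also known as genes of the B lineage, and the summed B cell markers were at 16.6 FPKM in untreated and 10.2 in treated WT and 9.38 in untreated and 6.56 in treated GEF-H1-/- BMDCs. The part of B cells in these values was not tested. Tnfsf11, the ligand of RANK, stayed under 1 FPKM (0.617 to 0.987), and its decoy receptor Tnfrsf11b was at 1.06, 2.85, 0.681 and 1.13 FPKM.

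Of the 46 ligands and receptors of the superfamily listed, 36 passed the filter. Among the 7 other ligands that did (of 12 listed), none was called for the drug in either genotype, and their median log2 ratios were -0.11 in WT and -0.13 in GEF-H1-/- BMDCs. With a common summed FPKM, Ltb was called for the drug in WT BMDCs, with a log2 ratio of -1.02. Beside Ltb, Tnfsf12 (TWEAK) and Tnfsf13 (APRIL) were the highest of these ligands in control WT BMDCs, at 7.83 and 4.06 FPKM, and neither was called. The table gives both the same locus, so fragments could be split between them. Lta, which encodes lymphotoxin α and starts 3774 bases from Tnf, was lower in control GEF-H1-/- BMDCs (0.200 FPKM) than in control WT BMDCs (1.44 FPKM), a log2 ratio of -1.03 (-1.37 to -0.68). Ltb, the gene of lymphotoxin β and 4884 bases from Tnf on the other side, was at 19.8, 11.3, 33.7 and 26.7 FPKM in untreated WT, treated WT, untreated GEF-H1-/- and treated GEF-H1-/- BMDCs. It was thus higher in treated GEF-H1-/- than in treated WT BMDCs, with a log2 ratio of 1.18 (0.65 to 1.70), whereas Tnf between them overlapped in every comparison.

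Other members also lie near one another. Tnfsf18, the GITR ligand gene 99219 bases from Tnfsf4, was at 0.0995, 0.544, 0.0457 and 0.109 FPKM in the 4 groups and below the filter. Cd70, 53974 bases from Tnfsf9 and 43495 from Tnfsf14, was also below it, at 0.900, 0.743, 0.618 and 0.277 FPKM. Ltbr starts 43152 bases from Tnfrsf1a, and Tnfrsf8, the CD30 gene, 56608 bases from Tnfrsf1b. Tnfrsf8 was at 1.21 FPKM in untreated and 1.58 in treated WT BMDCs, and 0.342 in untreated and 0.415 in treated GEF-H1-/- BMDCs. Its level in GEF-H1-/- relative to WT BMDCs was 0.282 (0.144 to 0.552) without and 0.263 (0.146 to 0.476) with the drug, with intervals apart but neither log2 ratio past the limit, while Tnfrsf1b beside it overlapped in every comparison. Tnfsf8, which encodes CD30 ligand, was at 4.04, 4.20, 2.17 and 3.66 FPKM in the 4 groups and was not called in any comparison. Its ratio of treated to control was 1.69 (1.19 to 2.40) in GEF-H1-/- BMDCs, with intervals apart, and 1.04 (0.751 to 1.44) in WT. Control GEF-H1-/- BMDCs had 0.537 times the WT level (0.376 to 0.766), also with intervals apart.

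Among the 19 other receptors past the filter (of 24), the median log2 ratio was 0.04 in WT and 0.00 in GEF-H1-/- BMDCs, and 2 were called in WT, where 4.94% of all genes were, and 0 in GEF-H1-/- BMDCs. With a common summed FPKM, Tnfrsf13b was also called in WT BMDCs, at -1.06. One of the 2 was Tnfrsf13c, given above, and the other was Tnfrsf12a, the receptor of TWEAK, which rose in WT from 5.55 to 16.6 FPKM, a log2 ratio of 1.42 (0.36 to 2.49). Its intervals overlapped, its locus in the table is shared with Ccdc64b, Hcfc1r1 and Thoc6, and it was at 7.40 and 12.8 FPKM in control and treated GEF-H1-/- BMDCs. Relt, Ltbr and Tnfrsf18 were the highest of these receptors in control WT BMDCs, at 43.2, 32.9 and 32.7 FPKM, and none of them was called.

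**Figure D3:**
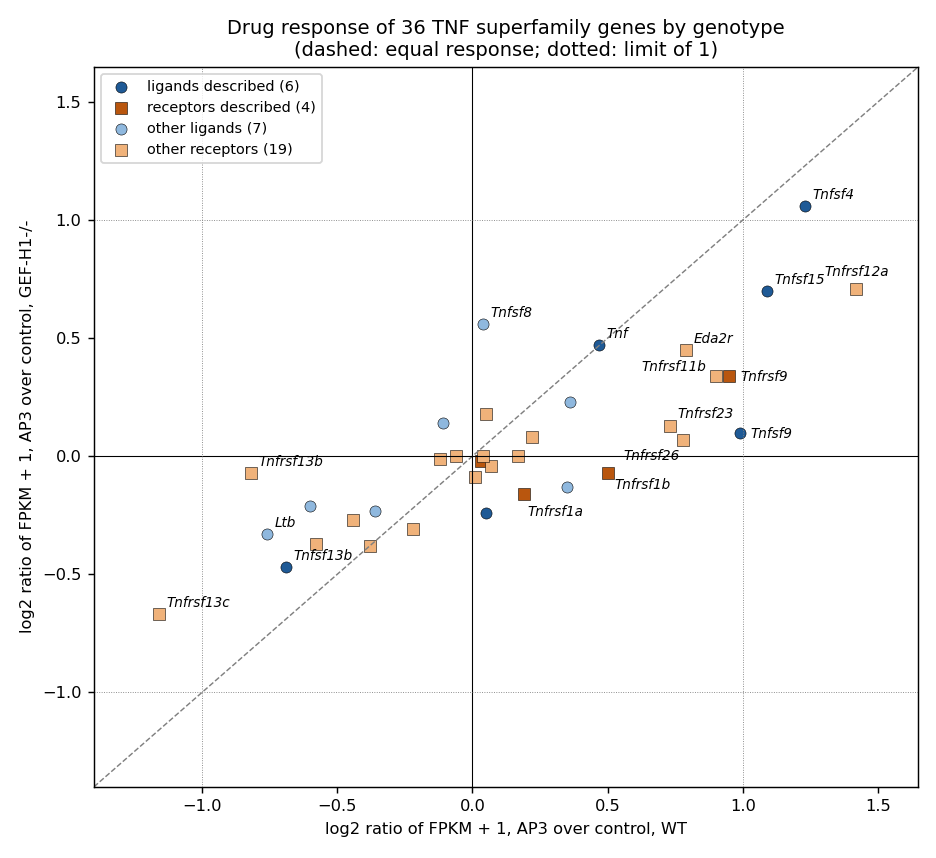
Log2 ratio of FPKM + 1, ansamitocin-P3 over control, in WT (horizontal axis) and GEF-H1-/- BMDCs (vertical axis) for the 36 superfamily genes past the filter. The dashed line marks equal values and the dotted lines the limit of 1. Tnf lies on the line, Tnfsf4 near it, and Tnfsf9 and Tnfrsf9 well below it, at 0.99 and 0.10, and 0.95 and 0.34.

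Genes that act just below the receptors were measured as a list of 27, all past the filter. In WT BMDCs 22 were higher and 5 lower with the drug as deposited, with a median log2 ratio of 0.34. Of all genes 5710 were higher and 5655 lower, with a median of 0.00. Of the 27 only 1 was called, against 4.94% of all genes. This was Tank, an adaptor that binds TRAF proteins, which rose from 29.0 to 72.8 FPKM, 2.51-fold (1.88 to 3.35). In GEF-H1-/- BMDCs 16 were higher and 11 lower, with a median of 0.03 and 0 called, and Tank was at 26.3 and 48.3 FPKM. Traf1, an adaptor recruited by TNF receptor 2 and 4-1BB, was at 49.1 and 98.2 FPKM in control and treated WT and at 43.1 and 73.2 FPKM in control and treated GEF-H1-/- BMDCs. Its intervals were apart in both genotypes, and its WT log2 ratio of 0.98 lay just under the limit. Rbck1 and Casp8, among the 3 highest of the list with Traf1, at 57.4 and 47.6 FPKM in control WT BMDCs, were not called. The drug's log2 ratio was smaller in GEF-H1-/- than in WT BMDCs for 23 of the 27 genes, against 51.6% of all genes. With a common summed FPKM, 14 were higher and 13 lower in WT BMDCs, with a median of 0.07. Of all genes 2944 were then higher and 8441 lower, with a median of -0.24. The value in GEF-H1-/- BMDCs was then smaller for 12 of the 27, against 23.7% of all genes, and Tank stayed past the limit in WT.

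Of 9 genes that act in the shedding of TNF or in the control of its gene and mRNA, 8 passed the filter. Their median log2 ratio was 0.94 in WT and 0.27 in GEF-H1-/- BMDCs, and 4 of the 8 were called in WT, all upward, against 4.94% of all genes and 3.66% upward. In GEF-H1-/- BMDCs 1 was called, against 1.08%. Zfp36, which encodes tristetraprolin, a protein that binds Tnf mRNA and promotes its decay, rose in WT BMDCs from 63.2 to 158 FPKM and was at 71.1 and 98.9 FPKM in GEF-H1-/- BMDCs. Its relative Zfp36l1 rose in both genotypes, from 116 to 345 FPKM in WT, 2.97-fold (2.18 to 4.04), and from 96.1 to 195 FPKM in GEF-H1-/- BMDCs, 2.03-fold (1.5 to 2.75). Rhbdf2, which encodes iRhom2, a cofactor of the protease that sheds TNF, rose in WT from 21.4 to 47.0 FPKM and was at 23.5 and 30.9 FPKM in GEF-H1-/- BMDCs.

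Timp3 encodes an inhibitor of that protease and rose in WT BMDCs from 1.30 to 6.74 FPKM, 5.18-fold (3.27 to 8.23). It was at 1.78 and 2.83 FPKM in control and treated GEF-H1-/- BMDCs. It was the only one of the 82 listed genes whose log2 ratio differed between the genotypes by more than 1, at -1.29 (-1.86 to -0.72). Its gene lies within that of Syn3, and its locus in the table overlaps those of Syn3 and 4930486F22Rik. Fragments of the shared stretch could thus be assigned to another gene. Genes with opposite known effects on TNF were thus called in the same direction in WT BMDCs as deposited, while Tnf itself was not called. These were the genes of the iRhom2 cofactor and the protease inhibitor and the mRNA decay factor genes Zfp36 and Zfp36l1. With a common summed FPKM the list's WT median was 0.67, where that of all genes was -0.24. In WT 3 of its genes were then called, all upward, where 260 of 11417 genes were, and Rhbdf2 no longer passed the limit. In GEF-H1-/- BMDCs 0 of the list were called. Litaf, named as a TNF factor induced by lipopolysaccharide, was at 144 FPKM in control WT BMDCs and Zfp36l2 at 78.1 FPKM, and neither was called.

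**Figure D4:**
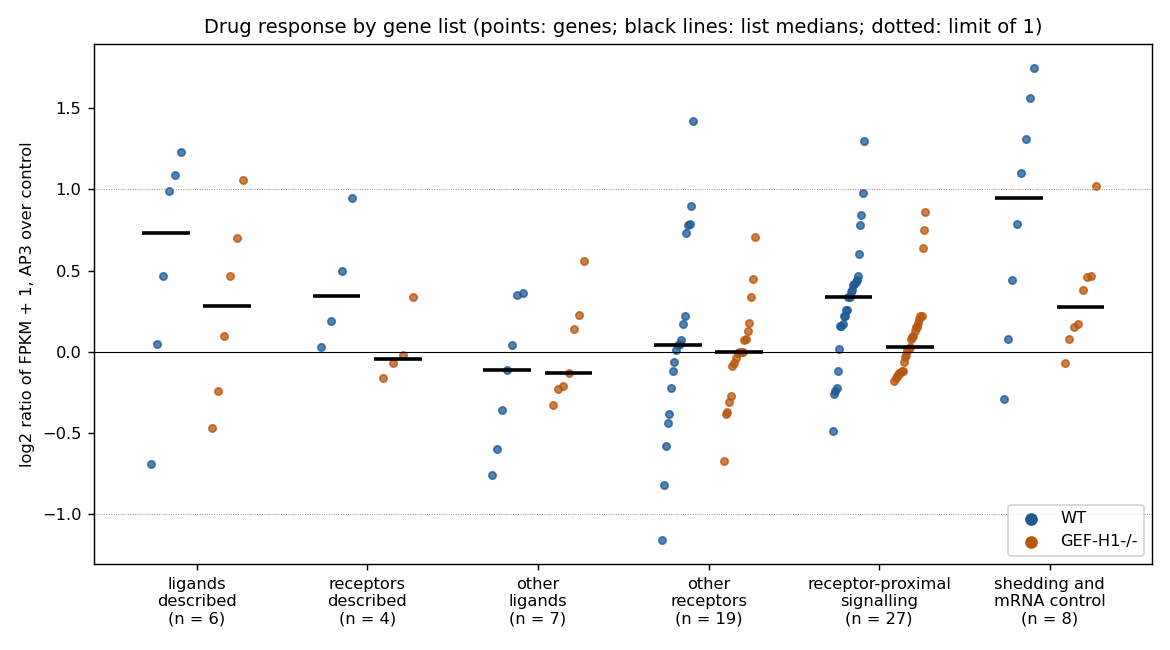
Log2 ratio of FPKM + 1, ansamitocin-P3 over control (vertical axis), of every gene past the filter in each of the 6 lists, in WT (blue) and GEF-H1-/- (orange) BMDCs. Black lines are medians, which are 0.73 and 0.29 for the 6 ligands, 0.34 and -0.04 for the 4 receptors, and 0.94 and 0.27 for the genes of shedding and mRNA control.

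For Tnfsf4 and Tnfsf15, the genes called for the drug, the nearest patterns over the 4 groups were sought among 8894 genes with at least 5 FPKM in some group, by the distance of centred log2 values of FPKM + 1. Those nearest to Tnfsf4 were C5ar1, the C5a receptor gene, at a distance of 0.306, and Olr1, an oxidized lipoprotein receptor gene, at 0.377. C5ar1 was at 33.1, 83.9, 21.5 and 35.5 FPKM in untreated WT, treated WT, untreated GEF-H1-/- and treated GEF-H1-/- BMDCs. Those nearest to Tnfsf15 were Rel, which encodes the NF-κB subunit c-Rel, at 0.142, and C5ar1 at 0.165. Rel was at 29.2, 65.2, 19.7 and 34.2 FPKM. Tnfsf15 itself lay at 0.448 to 3.90 FPKM, so the added 1 FPKM narrows its pattern more than those of Rel and C5ar1. Likeness without the added 1 FPKM was not computed. With 4 groups such likeness rests on 4 values per gene and is a description.

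The summed FPKM were 609360 in untreated and 739523 in treated WT BMDCs, and 599331 in untreated and 617423 in treated GEF-H1-/- BMDCs. Scaling the groups to a common sum would shift log2 ratios of FPKM by -0.28 for the drug in WT, 0.26 between the treated groups and 0.24 for the difference between the genotypes, while scaling by the median ratio over genes gave factors of 0.995 to 1.005. With a common sum, 0 of the 10 genes passed the limit for the drug in WT or between the treated groups, although Tnfsf4 at 0.96 and Tnfsf15 at 0.89 in WT, and at -0.90 and -0.86 between the treated groups, kept their direction. The WT log2 ratios of Tnfsf14, Tnfrsf1a and Tnfrsf11a, which were not called, turned to -0.17, -0.09 and -0.20. Of all genes called in WT, 417 of 563 were higher with the drug as deposited and 260 of 678 with a common sum. Between the treated groups these were 228 of 463 and 423 of 549, and for the difference between the genotypes 61 of 216 and 117 of 212.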

How the data were processed

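RNA from BMDCs was sequenced by the authors as strand-specific, paired-end libraries of polyadenylated RNA, 8 libraries in 4 groups. The authors computed FPKM with Cuffdiff (version 1.05, as written in the methods) and deposited 1 FPKM per gene and group, with interval bounds, in the unit of FPKM, and a status. The deposited bounds are a model's estimate of error, in which the spread between libraries cannot be seen on its own. The labels name mm10, and the aligner and annotation behind this table are not given in the sources used here. Group columns were matched by name, and those without a genotype were taken as WT by elimination. The number of unused columns with per-sample values was 0.

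Here, 107 genes with a status other than OK were left out, and at least 1 FPKM in at least 1 group was required, which left 11397 of 23356 genes. The log2 ratio of FPKM + 1 was computed for 5 comparisons, with intervals carried by the delta method (Python 3.11.15, numpy 2.4.6, pandas 2.3.3). The limit was a log2 ratio of 1 (2-fold). The computation was tested on simulated data. The 10 genes, the other lists (82 genes in all) and the markers were chosen with earlier results of these data known. The genes named are Arhgef2, the 10 genes, their partners and neighbours within 100000 bases, called genes and the 3 highest in control WT BMDCs of each other list, and the 2 genes nearest in pattern to each called gene of the 10. Sequences are RefSeq's, and genes are placed by the loci of the table, which follow GRCm38. The alternatives tried, 9 in all, were other pseudocounts, filters, scalings and limits.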

Additional observations from a re-analysis of the deposited data

How the results depend on the processing

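The values of the 10 genes were recomputed under other settings, and of 335 such values 284 moved by less than their error, 51 moved further and 0 of the called values changed sign. With a pseudocount of 0.1 FPKM, the numbers of all genes called were 956 for the drug in WT, 212 for the drug in GEF-H1-/-, 372 between the control groups, 801 between the treated groups and 387 for the difference between the genotypes. Of the 10 genes, 2 were then called for the drug in GEF-H1-/- BMDCs and 2 between the control groups (Tnfsf4 and Tnfsf15 in both), and 1 for the difference (Tnfsf9). With 5 FPKM, the numbers of all genes were 318, 77, 101, 206 and 123 in the same order, and of the 10 genes 1 (Tnfsf4) was called in WT, 0 in GEF-H1-/- BMDCs and 0 between the treated groups. A filter of 5 FPKM, under which 3 of the 10 genes were left out, gave 1 call in WT and 1 between the treated groups, both Tnfsf4, where 5.70% and 4.37% of the 8894 genes left were called. With a common summed FPKM, 0 were called in either comparison. A requirement that intervals do not overlap left 70 of all genes for the drug in GEF-H1-/- BMDCs and 141 for the difference. With a limit of 1.5-fold, 2016, 454, 600, 1687 and 935 of all genes were called, and of the 10 genes 5 in WT, 2 in GEF-H1-/- BMDCs, 3 between the control groups and 2 for the difference (Tnfsf9 and Tnfrsf9). The median-ratio scaling and the absence of a filter moved no value of the 10 genes beyond its error. The setting without a pseudocount was chosen after the data were seen.

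No paired analysis was possible because the deposited columns are pooled per group, and leaving out each replicate in turn was not run for the same reason. The spread between the 2 libraries of a group cannot be seen in the Cuffdiff intervals, so the folds have no replicate check. The intervals of the 10 genes spanned 36.3% to 86.6% of the FPKM, and Tnfsf9, a low gene, had the widest.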
